A study of Rattus norvegicus with 36 samples.

Results

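The transcripts of 4 genes of the indirect striatal pathway, *Drd2*, *Adora2a*, *Cnr1* and *Penk*, were followed in the striatum of 36 rats. The genes were chosen as transcripts known to decline early in models of Huntington disease, and they are 4 of the 23965 genes in the deposited count table. They were found by their Ensembl identifiers, ENSRNOG00000008428 for *Drd2*, ENSRNOG00000001302 for *Adora2a*, ENSRNOG00000008223 for *Cnr1* and ENSRNOG00000008943 for *Penk*. All 4 were among the 12657 genes that averaged 50 or more raw counts over the libraries, and these were the genes tested.

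Poly(A) RNA was sequenced from 36 male Sprague Dawley rats aged 2 months, 6 in each of 6 groups. Wildtype (WT) rats and BACHD transgenic (TG) rats were reared in a standard environment (SE), in an enriched environment (EE), or with maternal separation (MS), which the sample labels give as early life stress. BACHD rats carry the full-length human mutant huntingtin gene with its own regulatory sequences on a bacterial artificial chromosome, so the transgene is not limited to a cell type of the striatum. EE rats were kept after weaning in larger cages with changing objects, and MS pups were taken from their mothers daily in the first weeks of life and then housed as the SE rats were. TG animals came from heterozygous BACHD fathers and WT mothers, the WT animals were their littermates, and whole litters were assigned to an environment. The labels do not say which animals shared a litter, so environment and litter cannot be fully told apart and all tests describe the spread between animals.

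The projection neurons of the striatum form a direct and an indirect pathway, and those of the indirect pathway reach the external globus pallidus and act to restrain movement. *Drd2* encodes the inhibitory dopamine receptor of these cells, and *Adora2a* encodes an adenosine receptor that stimulates cyclic AMP formation in the same cells and opposes it. *Cnr1* encodes the main cannabinoid receptor of the brain, which acts on axon terminals to lower transmitter release and is also made by other neurons. *Penk* encodes the precursor of the enkephalins, the opioid peptides that mark indirect pathway neurons.

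Total counts ranged from 9895073 to 19284439 per library, and no pair of libraries agreed within sampling noise. The rows of the table carry rat Ensembl identifiers without symbols, so the human transgene and the markers of striatal cell types were not analysed here. The genotype labels could be checked only on a row chosen after its values were seen. ENSRNOG00000010867, the gene with the largest genotype difference, was at 437 or more normalized counts in all 18 TG libraries and at 84.7 or fewer in all 18 WT libraries.

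Promoter sequence was at hand for *Drd2*. It is shown since *Drd2* was the reference for the comparisons between the genes below. The 250 bases before the RefSeq start of *Drd2* lie on the plus strand of GRCr8 at chr8:58605153-58605402, and capitals mark the matches to the GC box (GGGCGG, read on both strands):
Drd2 promoter: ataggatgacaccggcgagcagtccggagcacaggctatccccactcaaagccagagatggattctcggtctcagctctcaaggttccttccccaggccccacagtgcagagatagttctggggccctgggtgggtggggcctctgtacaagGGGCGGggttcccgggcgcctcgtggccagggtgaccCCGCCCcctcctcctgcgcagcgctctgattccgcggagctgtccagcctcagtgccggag
This window had a GC content of 66.0%, above 86.2% of the 33469 RefSeq promoter windows of the same length, and it held 14 CpG dinucleotides. A GC box stood at positions -98 to -93 on the strand of the gene, counted back from the start, and another stood at -61 to -56 on the opposite strand. GC boxes occurred in 30.5% of all windows. The cyclic AMP response element (TGACGTCA), a sequence bound by factors of cyclic AMP signalling, was searched on both strands and its letters were not in the window, as they were in 1.59% of all windows. The same held for the letters of the TATA box (TATAAA), present in 12.9% of windows.

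*Drd2*, the dopamine receptor, was measured with 2428 to 4414 raw counts per library. Its normalized read count (raw count scaled by TMM to a common library size) in WT_SE had a lowest, median and highest value of 2506, 2950 and 3523. In TG_SE, these values were 2765, 3028 and 3181. The 6 TG_SE animals lay inside the range of the WT_SE animals, and 3 of them were below the WT_SE median. In WT_EE, *Drd2* stood at 2383, 3099 and 3461, and in TG_EE at 2857, 3129 and 3970. The groups overlapped, with 1 TG_EE animal above and 0 below the range of WT_EE. In WT_MS, the values were 3013, 3421 and 3715, and in TG_MS they were 2714, 3049 and 3477. Here, 3 of 6 TG_MS animals lay below the lowest WT_MS animal and 5 of 6 below the WT_MS median. In order of their means, the groups were TG_SE (2998 ± 196, SD, n = 6), WT_SE (3014 ± 397), TG_MS (3084 ± 271), WT_EE (3084 ± 381), TG_EE (3223 ± 388) and WT_MS (3423 ± 240). Each neighbour in this order differed by less than the SD of either group.

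*Adora2a*, the adenosine receptor, had 3219 to 5884 raw counts per library. Its lowest, median and highest normalized counts were 3848, 3939 and 4892 in WT_SE and 3429, 4118 and 4867 in TG_SE. They were 3373, 4208 and 4909 in WT_EE and 3635, 4651 and 5428 in TG_EE. In WT_MS they were 3929, 4600 and 5363, and in TG_MS 3995, 4376 and 4769. TG and WT overlapped in every environment. A single TG_SE animal was below the WT_SE range, a single TG_EE animal was above the WT_EE range, and the TG_MS animals were all inside the WT_MS range. The group means ran from TG_SE (4142 ± 475, SD, n = 6) over WT_SE (4177 ± 448), WT_EE (4242 ± 547), TG_MS (4357 ± 316) and TG_EE (4600 ± 594) to WT_MS (4611 ± 473), and again no neighbours were farther apart than the SD of either group.

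*Cnr1*, the cannabinoid receptor, had 1598 to 4769 raw counts per library and varied most among the 4 genes. In WT_SE, its lowest, median and highest normalized counts were 1944, 3124 and 3623, and in TG_SE 1751, 3045 and 3951. The TG_SE animals spread beyond the WT_SE range on both sides, with 2 below and 1 above. In WT_EE, *Cnr1* was at 3079, 3459 and 4904, and in TG_EE at 1974, 3011 and 4286. Of the TG_EE animals, 3 of 6 were below every WT_EE animal. In WT_MS, the values were 2256, 2849 and 3596, and in TG_MS they were 1982, 2611 and 3509, with 5 of 6 TG_MS animals below the WT_MS median. Group means were lowest in TG_MS (2650 ± 493, SD, n = 6), followed by TG_SE (2874 ± 881), WT_MS (2933 ± 518), WT_SE (2980 ± 661), TG_EE (3114 ± 812) and WT_EE (3664 ± 661). The TG mean was below the WT mean in all 3 environments, and neighbours in the order were closer than the SD of either group.

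*Penk*, the enkephalin precursor, had 12451 to 22584 raw counts per library. Lowest, median and highest normalized counts were 13190, 15660 and 17890 in WT_SE and 14810, 15970 and 19970 in TG_SE. Of the TG_SE animals, 2 of 6 were above the WT_SE range and 0 below it. The values in WT_EE were 14230, 16410 and 19580, and those in TG_EE were 14800, 17000 and 21560. In WT_MS, *Penk* was at 14080, 16300 and 20020, and in TG_MS at 15020, 16800 and 19710. No TG animal of any environment fell below the lowest WT animal of that environment. The order of the means was WT_SE (15420 ± 1695, SD, n = 6), WT_EE (16560 ± 1925), WT_MS (16580 ± 2098), TG_SE (17010 ± 2300), TG_EE (17220 ± 2430) and TG_MS (17250 ± 1783). The 3 TG means thus stood above the 3 WT means, with neighbours again closer than the SD of either group.

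**Figure D1:**
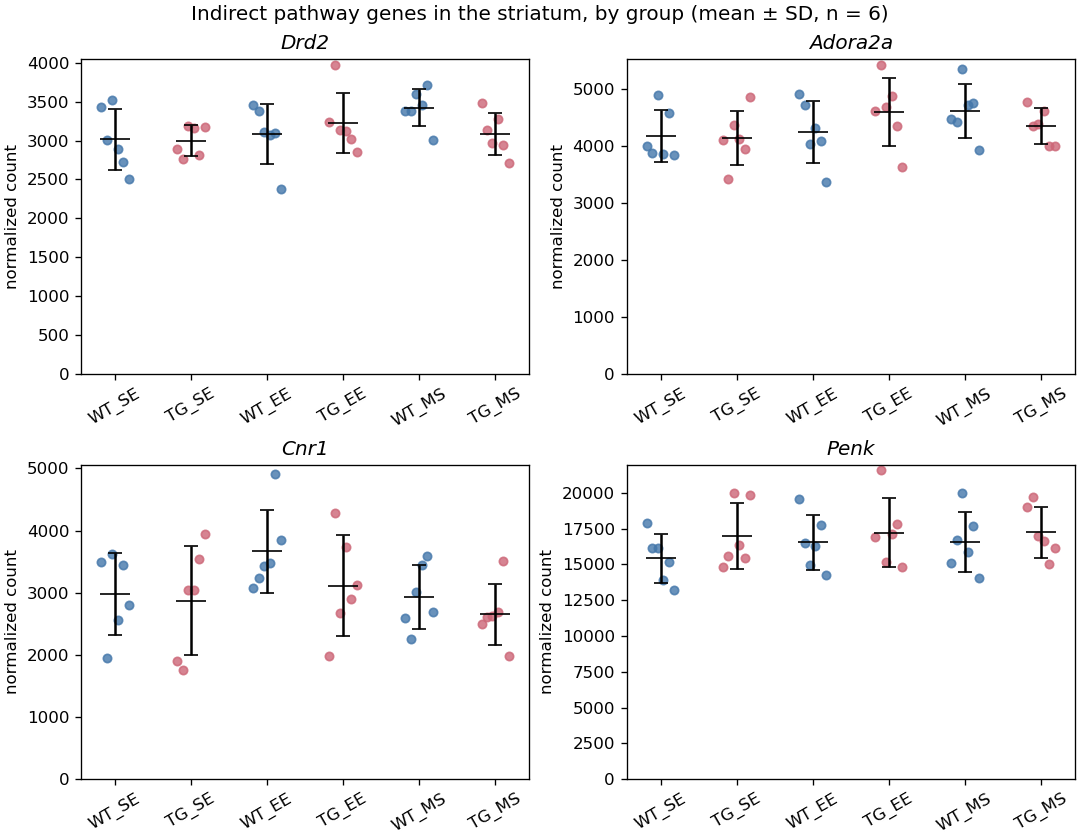
Normalized read counts (vertical axes, from 0) of *Drd2*, *Adora2a*, *Cnr1* and *Penk* in the 6 groups, with WT animals in blue, TG animals in red, and mean ± SD as black bars (n = 6). TG and WT animals overlap in every environment for all 4 genes, and *Cnr1* has the widest spread, from 1751 to 4904. How often TG and WT overlap over all tested genes was not assessed.

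To assess the effect of mutant huntingtin, the counts of the 36 libraries entered a single edgeR model (quasi-likelihood test), which held a mean for each group and 5 surrogate variables (unnamed sources of variation estimated from all genes). A gene was called where its p, adjusted by Benjamini-Hochberg over all tested genes, was no more than 0.1 and its log2 fold change was at least 0.3 in size. Averaged over environments, 0 of the 4 genes were called in TG against WT, where 0.577% of all tested genes were called. At an unadjusted p under 0.05, *Cnr1* was the 1 gene of the 4, against 15.3% of all tested genes. The same gene alone passed that limit in DESeq2, which used the same surrogate variables. Its unadjusted p in edgeR was 0.175 without surrogate variables, 0.141 with the runs described below as covariate, and 0.219 with 6 surrogate variables. With 6, a setting chosen after seeing the data, *Adora2a* (edgeR, unadjusted p = 0.0481) and *Penk* (unadjusted p = 0.036) passed instead. In striatal tissue, fewer cells of a type and less RNA per cell cannot be told apart.

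The averaged log2 fold change TG/WT of *Cnr1* was -0.17 ± 0.07 (SE), a fold of 0.890 with a 95% interval of 0.801 to 0.989 (edgeR, adjusted p = 0.258). Over the other settings tried, its adjusted p lay between 0.263 and 0.723. Without the WT_SE animal of library 1, the value was -0.10 (edgeR, adjusted p = 0.619), and without that of library 23 it was -0.21 (adjusted p = 0.108). *Drd2* had an averaged log2 fold change of -0.04 ± 0.03 (adjusted p = 0.556), and its interval reached from 0.930-fold to 1.01-fold. *Adora2a* stood at 0.0012 ± 0.03 (adjusted p = 0.992), with an interval from 0.958-fold to 1.04-fold. *Penk* stood at 0.05 ± 0.05 (adjusted p = 0.633), with an interval from 0.974-fold to 1.11-fold. The lower bounds of these 3 intervals were thus all above the 0.801-fold bound of *Cnr1*, whose interval was the widest.

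In SE, 0 of the 4 genes were called in TG against WT, beside 0.213% of all genes. Both *Drd2* and *Cnr1* had an unadjusted p under 0.05, as did 6.16% of all genes, whereas in DESeq2 only *Drd2* did. *Drd2* had a log2 fold change of -0.13 ± 0.06 (edgeR, adjusted p = 0.763), and *Cnr1* of -0.30 ± 0.14 (adjusted p = 0.787). These values belong to the fit with surrogate variables. The plain difference of mean log2 normalized counts was -0.0002 for *Drd2* (exact permutation test over all splits of the 12 animals, two-sided, p = 1.0) and -0.08 for *Cnr1* (exact p = 0.745). Without the WT_SE animal of library 1, the fitted *Drd2* value was -0.08 (edgeR, adjusted p = 0.947). The fitted *Cnr1* value moved to -0.08 without that animal and to -0.42 without the WT_SE animal of library 23.

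In EE, 0 of the 4 genes were called, beside 0.411% of all genes, and none had an unadjusted p under 0.05 in edgeR or DESeq2, as 11.4% of all genes did in edgeR. The fitted log2 fold changes were 0.02 ± 0.05 for *Drd2*, 0.0096 ± 0.05 for *Adora2a*, -0.14 ± 0.13 for *Cnr1* and -0.01 ± 0.08 for *Penk*. In MS, 0 of the 4 genes were called, beside 0.134% of all genes. *Penk* was the 1 gene with an unadjusted p under 0.05 in edgeR and in DESeq2, beside 7.36% of all genes in edgeR. Its fitted log2 fold change was 0.19 ± 0.08 (edgeR, adjusted p = 0.630), whereas its plain difference was 0.06 (exact permutation test, p = 0.522). *Drd2* showed the reverse, with a fitted value of -0.01 ± 0.06 and a plain difference of -0.15 (exact permutation test, p = 0.0541). The exact test does not take the runs described below into account. With runs as covariate in place of surrogate variables, *Drd2* in MS stood at -0.15, with an unadjusted p under 0.05 (edgeR, adjusted p = 0.592).

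Over the 12 exact permutation tests of the 4 genes in 3 environments, adjusted p ran from 0.649 for *Drd2* in MS to 1.0. Within the runs of consecutive library numbers described below, each holding 1 animal of every group, TG was below WT in 5 of 6 runs for *Drd2* in MS and for *Cnr1* in MS. TG was above WT in 5 of 6 runs for *Adora2a* in EE and for *Penk* in EE. For *Drd2*, *Adora2a* and *Cnr1* in SE the runs split evenly, with TG lower in 3 and higher in 3. TG was lower in 4 of 6 runs for *Adora2a* in MS and *Cnr1* in EE. It was higher in 4 of 6 for *Drd2* in EE and for *Penk* in SE and MS. These splits were not compared with chance.

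**Figure D2:**
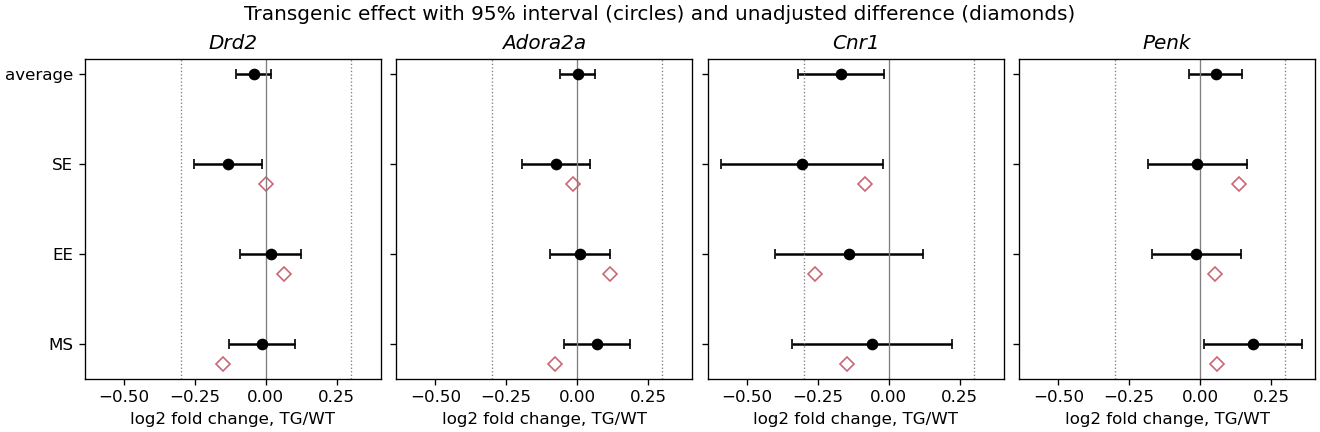
Log2 fold change TG/WT (horizontal axes) of the 4 genes, averaged over environments and in SE, EE and MS, as fitted by edgeR with surrogate variables (circles, with 95% intervals) and as the plain difference of mean log2 normalized counts (diamonds, one per environment). Dotted lines mark the fold change of 0.3 needed for a call. The interval of averaged *Cnr1* lies below 0, from -0.32 to -0.02, and circles and diamonds lie farthest apart for *Cnr1* in SE (-0.30 and -0.08) and on opposite sides of 0 for *Adora2a* in MS (0.07 and -0.08) and for *Penk* in SE and EE.

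Effects of the environment were assessed in the same fit. Averaged over genotypes, 0 of the 4 genes were called for EE against SE, beside 0.0079% of all genes (1 gene), and 0 had an unadjusted p under 0.05, beside 4.8% of all genes. *Cnr1* had the largest absolute value of the 4, a log2 fold change EE/SE of 0.17 ± 0.09 (edgeR, adjusted p = 0.9995), and the other genes lay between -0.06 and -0.02. For MS against SE, 0 of the 4 genes and 0% of all genes were called, and 0 of the 4 had an unadjusted p under 0.05, beside 6.29% of all genes. *Adora2a* had the largest absolute value, -0.08 ± 0.04 (edgeR, adjusted p = 0.793). DESeq2, with the same surrogate variables, also found none of the 4 at an unadjusted p under 0.05 in these averaged comparisons. Under other settings, 2 values for MS/SE did pass that limit. *Drd2* stood at 0.11 with runs as covariate (edgeR, unadjusted p = 0.033, adjusted p = 0.273). *Adora2a* stood at -0.0845 with no filter on low counts (edgeR, unadjusted p = 0.0454, adjusted p = 0.785). These comparisons share the SE animals, as do the interactions below.

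Within a genotype, no gene of the table was called in EE/SE or MS/SE, so the percentage was 0% in all 4 comparisons. At an unadjusted p under 0.05 were 6.02% of all genes for EE/SE in WT, 3.05% for EE/SE in TG, 6.14% for MS/SE in WT and 4.13% for MS/SE in TG. Of the 4 genes, *Adora2a* in MS/SE in WT was the 1 that passed, in the main edgeR fit and in DESeq2 with the same surrogate variables. Its fitted log2 fold change was -0.15 ± 0.06 (edgeR, adjusted p = 0.706). Without surrogate variables, the same comparison gave 0.14 (edgeR, adjusted p = 0.728), the opposite direction, as the higher mean of WT_MS above shows. *Drd2* in MS/SE in WT likewise stood at -0.08 in the main fit. It stood at 0.18 without surrogate variables (edgeR, unadjusted p = 0.0348, adjusted p = 0.585). With runs as covariate it stood at 0.19 (edgeR, unadjusted p = 0.0116, adjusted p = 0.303). *Cnr1* in EE/SE stood at 0.25 ± 0.14 in TG and 0.08 ± 0.13 in WT, and without surrogate variables at 0.12 in TG and 0.30 in WT.

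Whether the transgenic effect differed between environments was tested as an interaction. For EE against SE and for MS against SE, 0 of the 4 genes and 0% of all genes were called. None of the 4 had an unadjusted p under 0.05 in edgeR or DESeq2, beside 4.02% of all genes for EE and 4.2% for MS in edgeR. The interaction with EE was 0.15 ± 0.08 for *Drd2*, 0.08 ± 0.08 for *Adora2a*, 0.17 ± 0.20 for *Cnr1* and -0.0045 ± 0.12 for *Penk* on the log2 scale, all with an adjusted p of 0.999. The interaction with MS was 0.12 ± 0.08 for *Drd2*, 0.14 ± 0.08 for *Adora2a*, 0.24 ± 0.19 for *Cnr1* and 0.20 ± 0.12 for *Penk*. For *Cnr1*, the 95% interval of the MS interaction ran from -0.14 to 0.63, and the value was 0.04 without the WT_SE animal of library 1, 0.15 without the TG_SE animal of library 8 and 0.35 without the WT_SE animal of library 23. The interaction values of all 4 genes with MS were below 0 without surrogate variables.

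Beyond group, the 4 genes differed in how much animals of a group varied. The SD of log2 normalized counts around the group means was 0.15 for *Drd2*, 0.16 for *Adora2a*, 0.17 for *Penk* and 0.34 for *Cnr1*, beside a median of 0.16 over all tested genes. The SD of *Cnr1* was larger than that of 94.5% of tested genes, against 45.6% for *Drd2*, 52.5% for *Adora2a* and 58.5% for *Penk*. Taken alone, the 6 groups accounted for 19.4% of the variance of *Drd2* across libraries, 15.1% for *Adora2a*, 18.3% for *Cnr1* and 10.6% for *Penk*. The 5 surrogate variables, also taken alone, accounted for 72.2%, 74.4%, 55.4% and 48.1%, respectively. For *Drd2*, the runs described below accounted for 33.5%, so the shares overlap and are not parts of a whole. The shares of the groups were not compared with a chance level.

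The library numbers in the labels fall into 6 runs of 6 (1 to 6, 7 to 12 and so on), and in each run all 6 groups occur once. What the libraries of a run share is not given in the sources used here. Among the 4 genes, *Drd2* differed between the runs (edgeR, adjusted p = 0.0492), as did 30.1% of all genes at an adjusted p of at most 0.1. Its mean normalized count was 3312 in run 1 and 3272, 3250, 3167 and 3050 in runs 2 to 5, and it was lowest in run 6 with 2774. *Cnr1* did not pass (adjusted p = 0.157) and had its lowest mean in run 1 with 2591 ± 621 (SD, n = 6) and its highest in run 5 with 3651 ± 665. *Adora2a* (adjusted p = 0.335) and *Penk* (adjusted p = 0.434) had their lowest means in run 6, as *Drd2* did, with 3941 ± 507 and 15380 ± 2394.

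**Figure D3:**
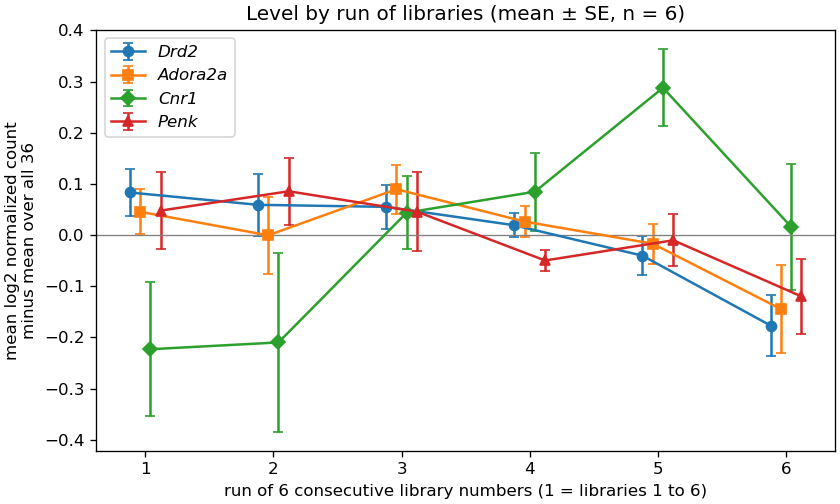
Mean log2 normalized count of each gene in the 6 runs of consecutive library numbers, minus its mean over all 36 libraries (vertical axis), with SE as bars (n = 6 animals, 1 of each group). *Drd2* lies at 0.08 in run 1 and at -0.18 in run 6, and *Cnr1* at -0.22 in run 1 and at 0.29 in run 5.

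Next, it was assessed whether animals high in one gene were high in the others. Log2 normalized counts were taken as deviations from the group mean in 36 animals, and the 6 pairs of genes were tested with 100000 permutations within groups. *Drd2*, *Adora2a* and *Penk* varied together. *Drd2* and *Adora2a* had a Pearson r of 0.77 (permutation p = 1e-05, the smallest that these permutations can give) and a Spearman rho of 0.74 (permutation p = 2e-05). *Drd2* and *Penk* had an r of 0.75 (permutation p = 1e-05, the smallest possible) and a rho of 0.75 (permutation p = 1e-05). *Adora2a* and *Penk* had an r of 0.70 (permutation p = 2e-05) and a rho of 0.69 (permutation p = 4e-05). Adjusted over the 6 pairs, the p-values of these 3 values of r were at most 4e-05, and those of rho at most 8e-05. Without the 2 animals farthest from the median of the first gene, r was 0.69, 0.70 and 0.66 in the same order.

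The 3 pairs with *Cnr1* did not pass an adjusted p of 0.05 in these deviations. Its r was 0.27 with *Drd2* (permutation p = 0.133), 0.33 with *Adora2a* (p = 0.0737) and 0.31 with *Penk* (p = 0.103), and its rho was 0.27 (p = 0.141), 0.33 (p = 0.0735) and 0.29 (p = 0.108). The adjusted p of these values of r lay between 0.111 and 0.133. Without the 2 farthest animals, r was 0.24, 0.43 and 0.30.

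The same pairs passed once the mean of each run was removed as well. How often pairs of other genes pass after this removal was not tested. The r of *Cnr1* was 0.68 with *Drd2* (permutation p = 0.00052, adjusted p = 0.00078), 0.52 with *Adora2a* (p = 0.0118, adjusted p = 0.0118) and 0.58 with *Penk* (p = 0.00243, adjusted p = 0.00292). The matching rho was 0.56, 0.38 and 0.49. After this removal, the animals of libraries 12 (TG_EE) and 36 (TG_SE) were the highest in each gene, with *Cnr1* at 0.71 and 0.51. The correlations were not repeated without the farthest animals on these values, so how far they rest on these animals was not tested. The other 3 pairs kept r of 0.71 for *Drd2* and *Adora2a*, 0.73 for *Drd2* and *Penk* and 0.69 for *Adora2a* and *Penk*, each with an adjusted p of 0.0003. Taken run by run, with 6 animals each, r of *Drd2* and *Adora2a* ranged from 0.04 to 0.96 and that of *Adora2a* and *Penk* from 0.41 to 0.92. That of *Drd2* and *Cnr1* ranged from 0.15 to 0.90, and that of *Cnr1* and *Penk* from -0.33 to 0.89. The values of an animal share its library and scaling factor. With the size factors of DESeq2 in place of TMM, r in the deviations from the group means was 0.77, 0.75 and 0.70 for the pairs without *Cnr1* and 0.27, 0.34 and 0.31 for those of *Cnr1* with *Drd2*, *Adora2a* and *Penk*.

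**Figure D4:**
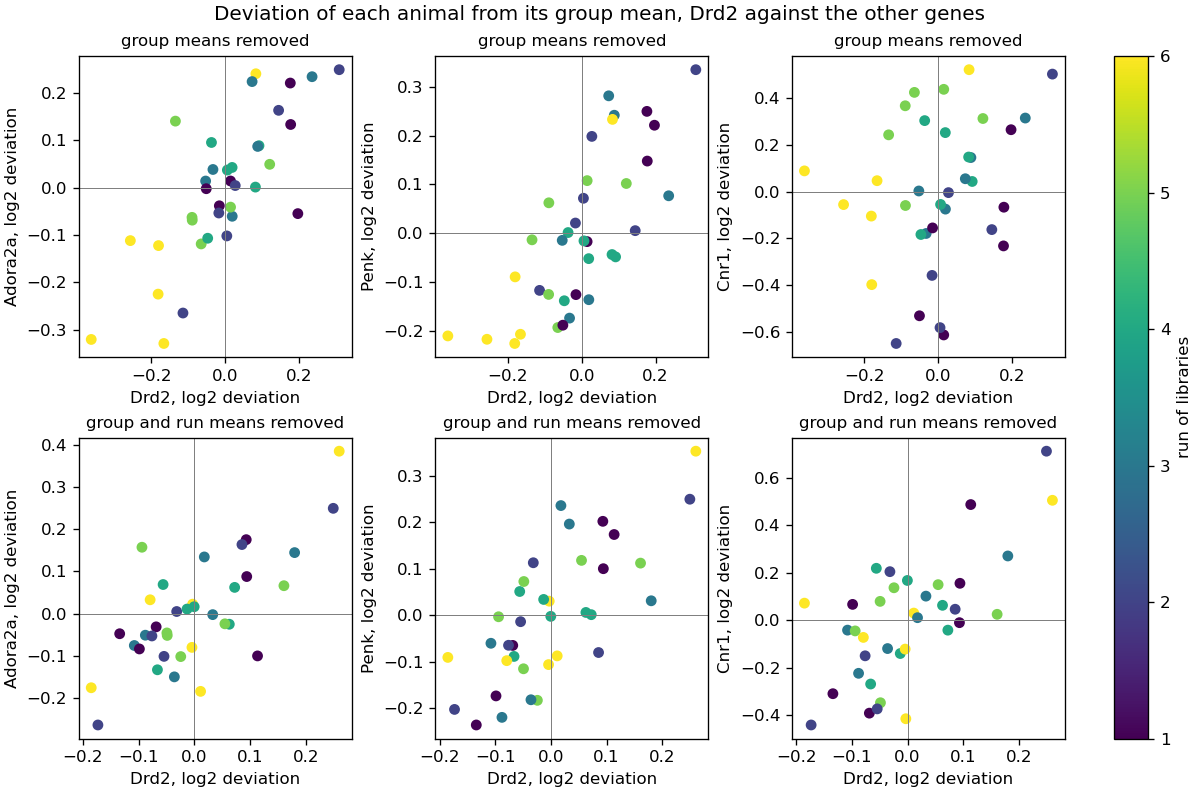
Deviation of *Adora2a*, *Penk* and *Cnr1* (vertical axes) against that of *Drd2* (horizontal axes) in log2 normalized counts, 1 point per animal (n = 36), coloured by run of library numbers. In the upper row group means are removed (r = 0.77, 0.75 and 0.27), and in the lower row run means are removed too (r = 0.71, 0.73 and 0.68).

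Finally, each gene was compared with all 12656 other tested genes across the 36 libraries, group differences included, as a description. For *Drd2*, *Adora2a* ranked 10 by Pearson r (0.79), *Penk* ranked 73 (0.67) and *Cnr1* ranked 2930 (0.22). For *Adora2a*, *Drd2* ranked 22, *Penk* 134 and *Cnr1* 2580. For *Penk*, *Drd2* ranked 34, *Adora2a* 43 and *Cnr1* 2398. From the side of *Cnr1*, the closest of the other 3 was *Adora2a*, at rank 2367. The closest gene of all was ENSRNOG00000018708 for *Drd2* (r = 0.90), ENSRNOG00000006979 for *Adora2a* (r = 0.92), ENSRNOG00000031814 for *Cnr1* (r = 0.84) and ENSRNOG00000047799 for *Penk* (r = 0.84). The next closest pair had r of 0.86 and 0.83 for *Drd2*, 0.88 and 0.87 for *Adora2a*, 0.84 and 0.83 for *Cnr1*, and 0.78 and 0.77 for *Penk*. None of the 3 closest genes of any of the 4 was another of them.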

How the data were processed

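Striatal RNA-seq libraries of 36 rats were grouped by the genotype and environment in their labels. The authors checked reads with FastQC 0.11.4, aligned them with STAR 2.5.2b to the rat genome of Ensembl with the human *HTT* transgene added, used DESeq2 1.16.1, and deposited unnormalized read counts for each Ensembl gene. The counting program is not given in the sources used here. All columns of the table were mapped to samples.

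The counts were fitted with edgeR 4.0.16 in R 4.3.3 (TMM, quasi-likelihood test, Benjamini-Hochberg adjustment over 12657 genes) and sva 3.50.0, which gave 5 surrogate variables (seed 1). TMM factors ranged from 0.942 to 1.07. Normalized counts and plain differences, on log2 values with 0.5 added, are not corrected for surrogate variables. Surrogate variables come from all genes and take out variation shared by many genes. Some fitted and plain values differed in sign, and the cause was not tested. Exact permutation tests and correlations used Python 3.11.15 with scipy 1.17.1. The procedure was tested on simulated data, and no result on its power for effects of the sizes above is given here. The p-values of fits with surrogate variables measure the spread between animals that is left after these variables. Exact permutation tests measure the spread between animals without this correction. Alternatives were no surrogate variables, runs as covariate, DESeq2 1.42.0 with the same surrogate variables, its size factors in edgeR, and no count filter. Further alternatives were a limit of 0.05 on the adjusted p, no limit on the fold change, and the omission of each animal in turn. Promoter sequences are from RefSeq (GRCr8), where 1 of the 4 genes was matched by symbol.

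The genes, lists and tests were chosen with earlier results of these data known. The named genes are the 4 genes and, for each, the 3 genes with the highest Pearson r, of which the first is given by identifier. Further lists of pathway genes and cell type markers were set by symbol and could not be applied, since neither the table nor the reference pairs Ensembl identifiers with symbols, so they were not analysed here.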

Additional observations from a re-analysis of the deposited data

Results flagged for a closer look

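In 24 groups of 6 animals (4 genes in 6 groups), the lowest or highest animal was compared with the others by Dixon's criterion (the gap to the nearest animal as a share of the whole range). Chance alone marks about 1 in 20 groups, and 2 of the 24 were marked here, both for *Drd2* in EE. The lowest WT_EE animal, library 31, had 2383 normalized counts of *Drd2*, whereas the next lowest had 3076, a gap of 0.643 of the range. The highest TG_EE animal, library 12, had 3970, whereas the next highest had 3238, a gap of 0.658 of the range. Leaving out each EE animal in turn, the fitted log2 fold change of *Drd2* in EE lay between -0.02 and 0.05, and *Drd2* was not called in any of these fits.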

How the results depend on the processing

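The number of the 4 genes called was 0 in all 96 combinations of the 12 comparisons with another setting and in all 216 combinations with 1 animal left out. The direction of single log2 fold changes was less stable: 55 of 288 values under other settings and 58 of 864 with 1 animal left out had the opposite sign of the main value, all of them uncalled, and the cause was not tested. Most of the 55 came with no surrogate variables or with runs as covariate. Without surrogate variables, TG/WT was 0.1414 in SE and 0.0567 in EE for *Penk* and -0.0819 in MS for *Adora2a*. EE/SE was 0.0685 (averaged) and 0.0326 (WT) for *Drd2*, 0.0866, 0.022 (WT) and 0.1512 (TG) for *Adora2a*, and 0.0606, 0.103 (WT) and 0.0182 (TG) for *Penk*. MS/SE was 0.1123 and 0.1836 (WT) for *Drd2*, 0.1079, 0.1427 (WT) and 0.073 (TG) for *Adora2a*, 0.0624 and 0.1044 (WT) for *Penk*, and -0.1174 in TG for *Cnr1*. The interaction with EE was -0.1835 for *Cnr1*, and that with MS was -0.1427 for *Drd2*, -0.0697 for *Adora2a*, -0.0948 for *Cnr1* and -0.0841 for *Penk*. With runs as covariate, TG/WT was 0.0027 for *Drd2* and 0.1513 for *Penk* in SE, 0.055 for *Penk* in EE and -0.0796 for *Adora2a* in MS. EE/SE was 0.0644 (averaged) and 0.032 (WT) for *Drd2*, 0.081, 0.0198 (WT) and 0.1422 (TG) for *Adora2a*, and 0.0575, 0.1056 (WT) and 0.0093 (TG) for *Penk*. MS/SE was 0.1113 and 0.1892 (WT) for *Drd2*, 0.1035, 0.1406 (WT) and 0.0665 (TG) for *Adora2a*, 0.0591 and 0.1063 (WT) for *Penk*, and -0.0967 in TG for *Cnr1*. The interaction with EE was -0.1356 for *Cnr1*, and that with MS was -0.1557 for *Drd2*, -0.0741 for *Adora2a*, -0.0621 for *Cnr1* and -0.0943 for *Penk*. With no filter on low counts, averaged TG/WT was -0.0016 for *Adora2a* and the EE interaction 0.0049 for *Penk*. With 6 surrogate variables, a setting chosen after seeing the data, TG/WT was 0.0513 in SE and 0.0628 in EE for *Penk* and 0.005 in MS for *Drd2*, and the EE interaction of *Penk* was 0.0116. DESeq2 size factors, also tried in the permutation tests and correlations after seeing the data, turned no direction. With run means removed, the correlations of *Cnr1* passed, at 0.68 with *Drd2*, 0.52 with *Adora2a* and 0.58 with *Penk*. These correlations were not repeated without the farthest animals, nor were they set beside those of other genes. With 1 animal left out, averaged TG/WT ranged from -0.017 to 0.0375 for *Adora2a*. In SE it ranged from -0.0647 to 0.0868 for *Penk*, and in EE from -0.0166 to 0.0549 for *Drd2*, -0.0139 to 0.0531 for *Adora2a* and -0.0445 to 0.0465 for *Penk*. In MS it ranged from -0.0388 to 0.006 for *Drd2* and -0.1075 to 0.0157 for *Cnr1*. EE/SE of *Penk* ranged from -0.0628 to 0.0072 averaged, -0.0759 to 0.0105 in WT and -0.1264 to 0.0257 in TG. EE/SE ranged from -0.0295 to 0.2446 in WT for *Cnr1*, and in TG from -0.001 to 0.0753 for *Drd2* and -0.0419 to 0.0154 for *Adora2a*. MS/SE ranged from -0.0677 to 0.0142 averaged for *Penk*, and in TG from -0.0258 to 0.0057 for *Adora2a* and -0.0048 to 0.1361 for *Penk*. The EE interaction ranged from -0.1027 to 0.2883 for *Cnr1* and -0.1272 to 0.0557 for *Penk*. The labels give no replicate numbers that groups share, so the runs of library numbers, each with 1 animal of every group, served as the block, as given above. Each of the 4 genes had at least 1598 raw counts in every library, and an effect of depth was not tested. The intervals come from the single main fit of all libraries. Their width rests on the spread between animals that is left after the surrogate variables, not on the spread within a group alone.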
